A study of Mus musculus with 24 samples.

Results

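The miRNAs described here are the measured products of the paired miR-193 and miR-365 genes of the mouse: mmu-miR-193a-3p, mmu-miR-193a-5p, mmu-miR-193b-3p and mmu-miR-365-3p. They were chosen by name, by genomic cluster and seed family, with earlier results of these data known. They make up 4 of the 1881 miRNAs on the array. The study measured miRNAs in hepatocytes sorted by their position in the liver lobule, on 24 Agilent 1-colour arrays. The 24 samples are 8 zones from each of 3 mice, and zone 8 is the most periportal and zone 1 the most pericentral. All mice were untreated C57BL/6J males aged 3 months, fed freely and held on a reversed light cycle. Each sample was 50000 viable tetraploid hepatocytes freed by liberase perfusion, without cells carrying CD45 or CD31. E-cadherin and CD73 stood in for position: zone 8 took the cells with more E-cadherin and zone 1 those with more CD73. Tetraploid cells are only one class of hepatocyte, and the sort on surface proteins is a proxy for position.

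A miRNA pairs through its seed, the bases near its 5′ end, with sites in mRNAs and lowers their output. In mammals the miR-193 and miR-365 genes sit side by side as a pair on each of a pair of chromosomes, so that each pair can be read as one primary transcript. miR-193a and miR-193b are known as restrainers of growth in several human tumours, where the pro-survival gene MCL1 is among the reported targets of the 3p arm. miR-193b and miR-365 were also studied in mouse brown fat, where their locus is induced as precursor cells turn into brown adipocytes. Hepatocytes around the portal vein receive blood richer in oxygen and nutrients than those around the central vein, and many of their genes differ in level with that position.

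The mature sequences of the 4 miRNAs show which of them could share targets and which probe signals could mix. They are RefSeq entries (mouse build GRCm38.p6), written 5′ to 3′ with the seed, bases 2 to 8, in capitals. All lie on the plus strand.
mmu-miR-193a-3p: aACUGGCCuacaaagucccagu
mmu-miR-193b-3p: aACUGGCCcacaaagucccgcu
mmu-miR-193a-5p: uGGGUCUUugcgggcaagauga
mmu-miR-365-3p: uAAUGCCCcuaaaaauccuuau
The first lies at chr11:79712009-79712030 and the second at chr16:13449570-13449591. Both carry the seed ACUGGCC and match at 19 of 22 positions, differing by U9C, A20G and G21C (position counted from 1 at the 5′ end, miR-193a-3p base first). miR-193a-5p, at chr11:79711975-79711996, comes from the other side of the Mir193a hairpin and has an unrelated seed. miR-365-3p is encoded at chr11:79726467-79726488 by Mir365-2 and at chr16:13453895-13453916 by Mir365-1. The mature sequence is the same from both of these 2 genes, so its signal cannot be divided between the chromosomes. No other mouse miRNA in the RefSeq table shared these 3 seeds.

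The precursors show how the arms lie in the hairpins and which arms tell the chromosomes apart, with the mature arms in capitals.
Mir193a: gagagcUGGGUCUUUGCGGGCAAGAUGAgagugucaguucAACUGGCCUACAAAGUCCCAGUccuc
Mir365-2: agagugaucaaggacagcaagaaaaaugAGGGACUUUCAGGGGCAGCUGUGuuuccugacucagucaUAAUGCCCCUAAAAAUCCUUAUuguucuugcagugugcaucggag
Mir193b: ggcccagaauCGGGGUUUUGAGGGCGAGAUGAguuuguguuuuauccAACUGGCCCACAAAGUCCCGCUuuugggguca
Mir365-1: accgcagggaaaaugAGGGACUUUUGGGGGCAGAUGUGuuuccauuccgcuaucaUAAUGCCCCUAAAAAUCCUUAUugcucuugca
Mir193a and Mir365-2 lie 14365 bases apart on chromosome 11, and Mir193b and Mir365-1 lie 4238 bases apart on chromosome 16. The 5p arms of the miR-365 genes differ in sequence and could separate the genes. Neither miR-365-1-5p nor miR-365-2-5p was detected on any of the 24 arrays. miR-193b-5p, the other arm of Mir193b, was detected on 1 array, that of mouse 3 zone 5, with a deposited signal of 4.29. The products of chromosome 16 were therefore read here through miR-193b-3p, and those of chromosome 11 through the miR-193a arms.

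The deposited signal per miRNA is a fluorescence intensity on a linear scale, and a miRNA called undetected is given as 0.1. Summed signals ran between 57935 and 138301 per array, with 248 to 368 miRNAs detected. Signals were scaled to a common 75th percentile over the 198 miRNAs detected on every array. Before log2, values were raised to a floor of 1.12, which also stands for undetected ones. Tests covered the 339 miRNAs detected on at least 6 arrays, which all 4 members were. On each of the 3 slides zones 5 to 8 filled one row and zones 1 to 4 the other, so this split and the slide row cannot be told apart, and neither can mouse and slide. The 3 hepatocyte markers were detected on every array. Of 18 markers of endothelial, blood, stellate and biliary cells, 2 were ever detected. The endothelial miR-126a-3p had a call on 9 of 12 arrays in zones 5 to 8 (deposited signal up to 9.53) and 7 of 12 in zones 1 to 4 (up to 10.9). The biliary miR-200b-3p was seen on 1 array of zones 5 to 8, at 2.39. The part of those cells in the results below was not tested. In such pooled cells a smaller share of expressing cells and less RNA per cell cannot be told apart, and signals of different probes are not compared as levels.

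miR-193b-3p was the member that differed most clearly with position: it was detected in periportal samples and on no pericentral array. Zones 5 to 8 held 7 arrays with a call of 12, and zones 1 to 4 held 0 of 12. By zone, the count of arrays with a signal was 1 of 3 in zone 5, 1 of 3 in zone 6, 2 of 3 in zone 7 and 3 of 3 in zone 8. In mouse 1 the scaled signal was 2.53 in zone 8 and undetected in zones 1 to 7. Mouse 2 had 2.34 in zone 7 and 2.43 in zone 8, and no call in zones 1 to 6. Detection reached furthest from the portal end in mouse 3, which had 1.49 in zone 5, 2.02 in zone 6, 2.82 in zone 7 and 2.77 in zone 8. All 3 mice thus shared the signal in zone 8 and the missing call in zones 1 to 4, and differed in where between them detection began. The arrays of mouse 3 were also brighter. Their summed signals in zones 5 and 6 were 115721 and 116111, against 65600 and 62723 in mouse 1 and 80796 and 99365 in mouse 2. In zones 1 to 4 of mouse 3, without a call, the summed signal was 101436 to 137270. Mouse 1 zone 8, with a call, had 64818. How far array brightness set where detection began was not tested.

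These signals lay close to the limit of detection. The deposited signal of miR-193b-3p was 2.00 to 3.52 on the 7 arrays, or 3.44 to 5.16 times its own deposited error, where the lowest ratio of any detected value on the arrays was 3.00. The median deposited error of miR-193b-3p was 26.1% of the signal, against 8.26% for miR-193a-3p and 7.19% for miR-365-3p. Below 3 times its error, a deposited signal of 1.74 to 2.30, this miRNA would not have been called, so an undetected array holds only a bound near that level. The zone 8 mean was 2.00-fold the mean of the lowest signals of any detected miRNA on the zone 1 arrays, and 1.73-fold the lowest signal of miR-193b-3p itself. Neither ratio is a lower bound, because the limit differs between miRNAs and, after scaling, between arrays. The lowest signal of miR-193b-3p came from mouse 3 zone 5, where scaling multiplied signals by 0.746. On the zone 1 arrays that factor was 1.01, 1.35 and 1.08 in mouse 1, mouse 2 and mouse 3, so a higher scaled signal could go uncalled there. The miR-193a-3p and miR-193b-3p sequences differ at 3 positions, and how far either miRNA binds the probe of the other was not tested, since probe sequences were not used here.

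**Figure D1:**
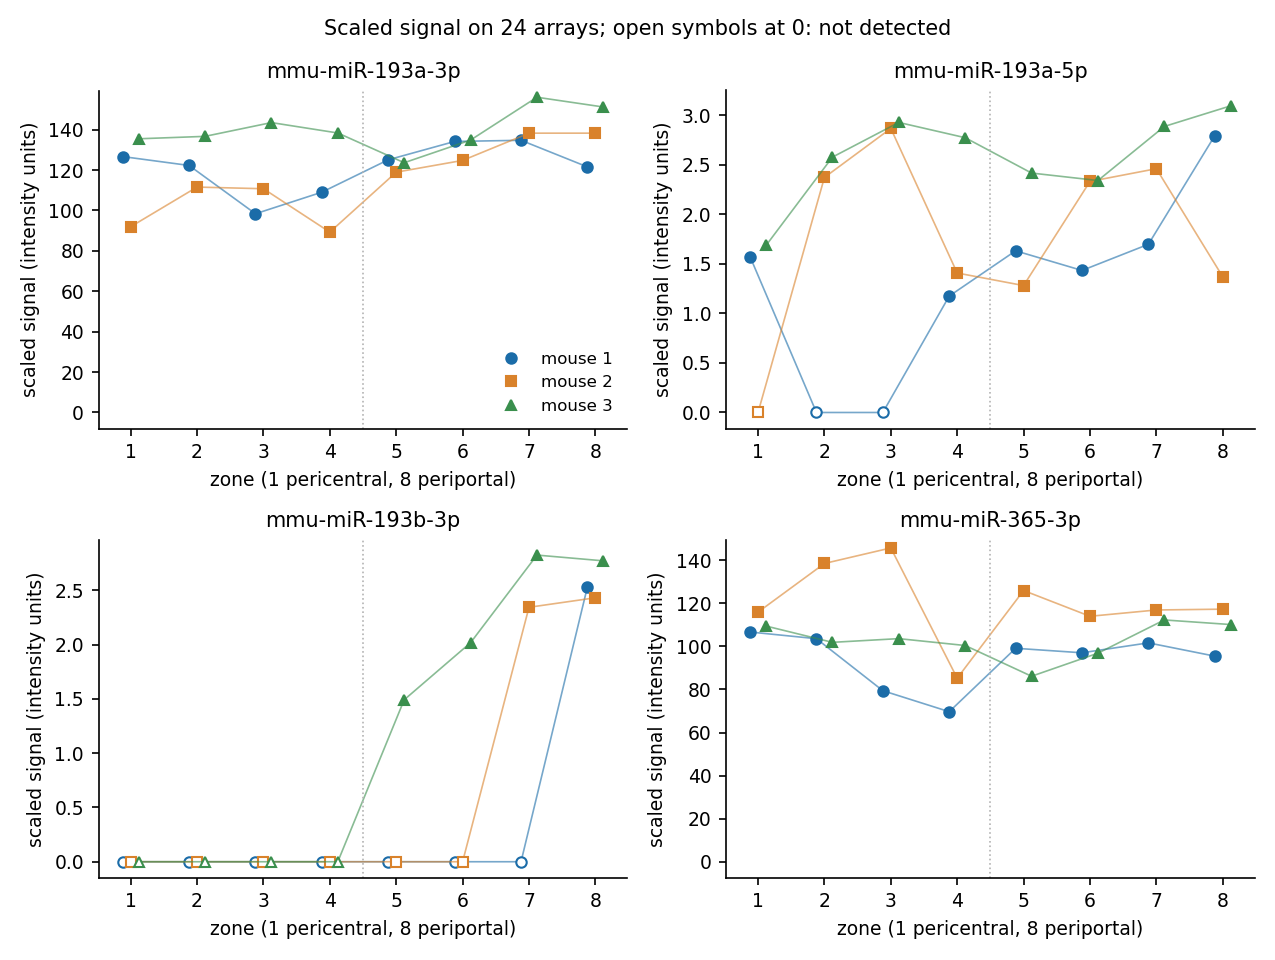
Scaled signal (intensity units, linear axis from 0) of each of the 4 miRNAs against zone, from zone 1 (pericentral) to zone 8 (periportal), with 1 point per mouse and zone and a line per mouse. Open symbols at 0 are arrays without detection. The dotted line parts zones 1 to 4 from zones 5 to 8 and the slide rows with them. miR-193b-3p leaves 0 right of that line, reaching 2.43 to 2.77 in zone 8, whereas miR-365-3p lies between 69.7 and 146 without a trend that passed the test.

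In the test of a straight trend over zone number, miR-193b-3p rose by 0.16 log2 units per zone, or 1.11 ± 0.22 over the axis from zone 1 to zone 8 (SE, 24 arrays, limma adjusted p = 0.000664). The slope was positive in 3 of 3 mice, at 0.10, 0.16 and 0.22 log2 units per zone in mouse 1, mouse 2 and mouse 3. With zones 1 to 4 at the floor throughout, any call in zones 5 to 8 gives a positive slope, so this sign was fixed. Of the 339 miRNAs tested, 10.3% were called higher towards zone 8 (35) and 6.49% lower (22), and 1 of the 4 members was called higher and 0 lower. With arrays left unscaled the split over all tested miRNAs was 36 higher and 3 lower, and with the summed signal as the scale 44 and 6. The median change over the axis of all tested miRNAs was -0.10 log2 units. miR-193b-3p passed the filter of 6 arrays through zones 5 to 8 alone, so some difference was built into its being tested, and its fitted size depends on the floor. The slope was 0.44 log2 units per zone with a floor 4 times lower and 0.10 with undetected values set to its own lowest signal. Without the zone 8 arrays it was 0.10 (limma adjusted p = 0.0576).

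Averaged over the zones, miR-193b-3p stood at 0.77 ± 0.58 log2 units in zones 5 to 8 and at the floor of 0.17 on all arrays of zones 1 to 4 (SD, n = 12 arrays each). With undetected arrays at the floor the fitted difference was 0.60 ± 0.13 (SE, limma adjusted p = 0.00299), where 10.3% of the tested miRNAs were called higher and 5.9% lower. It is not a measured difference, since no signal was called in zones 1 to 4: it was 0.36 with undetected values at the miRNA's own lowest signal and 1.77 with the floor 4 times lower. Leaving out mouse 2 gave 0.70 (adjusted p = 0.0680), and leaving out mouse 3 gave 0.35 (adjusted p = 0.109). At the ends of the axis, zone 8 stood at 1.36 ± 0.10 (SD, n = 3 mice), against the floor of 0.17 in zone 1, where 0 of 3 arrays had a call. The fitted difference was 1.20 ± 0.26 (SE, limma adjusted p = 0.00676), but 0.79 with the miRNA's own lowest signal and 3.20 with the floor 4 times lower, so its size is set by the floor. In this comparison 4.72% of all tested miRNAs were called higher in zone 8 and 0.59% lower. Without mouse 2 that difference was 1.30 (adjusted p = 0.180), and without mouse 3 it was 0.97 (adjusted p = 0.0638). The moderated F test over the 8 zones gave 5.98 (limma adjusted p = 0.0251), among 5.31% of miRNAs called, and did not pass without any one of the mice.

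The rise of miR-193b-3p was also seen among zones 5 to 8 alone, which share a slide row. Its slope there was 0.37 ± 0.08 log2 units per zone (SE, limma adjusted p = 0.0254), and 4 of 339 miRNAs, 1.18%, were called higher and 0 lower in this test. With the mouse as a block the adjusted p was 0.00679, with 1.77% called higher. In this fit 5 of the 12 arrays were at the floor, and the call was lost with the floor 4 times lower (0.84, adjusted p = 0.0912) and with arrays unscaled (0.38, adjusted p = 0.103). Without mouse 1, mouse 2 or mouse 3 the slope was 0.32 to 0.38 and the adjusted p 0.0673 to 0.756, and no miRNA was called. Within zones 1 to 4, where miR-193b-3p was at the floor throughout, 0 of 339 miRNAs passed (limma, no block; at an unadjusted p under 0.05, 8 were higher and 6 lower). A fit over all arrays with both mouse and slide row as terms gave a slope of 0.18 for miR-193b-3p (adjusted p = 0.339) and called 0 of 339 miRNAs.

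miR-193b-3p was 1 of 8 tested miRNAs, 2.36% of the 339, that were detected on no array of zones 1 to 4. No tested miRNA was missing from all arrays of zones 5 to 8. miR-125a-5p, miR-31-3p, miR-31-5p and miR-802-5p had calls on all 12 arrays in zones 5 to 8, so that they changed fully between zone 4 and zone 5, where the slide row also changes. Calls numbered 10 for miR-137-3p, 10 for miR-149-5p and 6 for miR-450a-2-3p. Detection of miR-193b-3p was spread over zones 5 to 8, with 1 array in zone 5 and 3 in zone 8, and only miR-450a-2-3p had fewer calls among the 8.

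**Figure D2:**
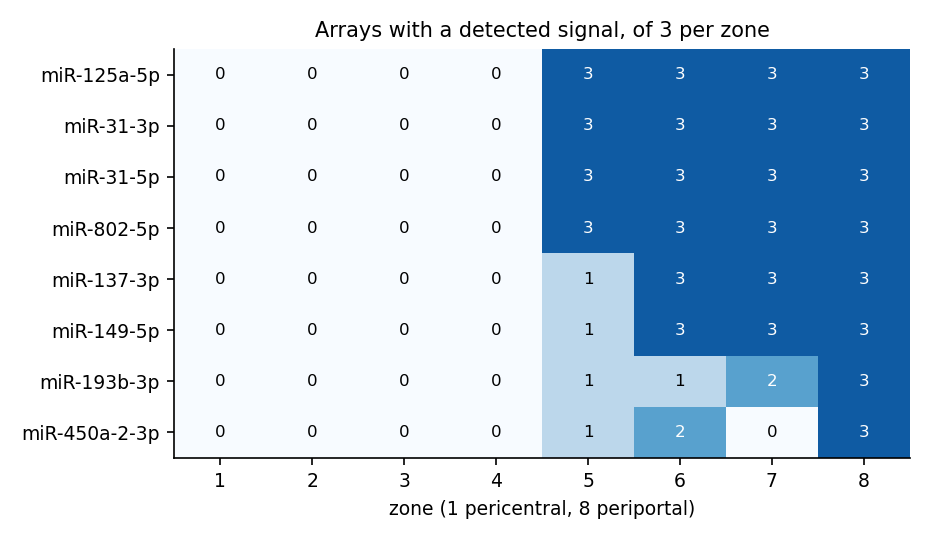
Number of arrays with a detected signal, of 3 per zone, for the 8 tested miRNAs without detection in zones 1 to 4; columns are zones 1 (pericentral) to 8 (periportal) and darker cells hold more arrays. miR-193b-3p goes through 1, 1, 2 and 3 arrays in zones 5 to 8, whereas miR-125a-5p, both miR-31 arms and miR-802-5p have 3 from zone 5 on.

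miR-193a-3p, which has the same seed as miR-193b-3p, was detected on all 24 arrays, and whether its trend along the axis passed depended on the fit. Its scaled signal in zones 5 to 8 ran between 119 and 156 with a median of 134, against 89.3 to 143.5 with a median of 117 in zones 1 to 4. The ranges overlapped. Along zones 1 to 8, mouse 1 had 127, 122.3, 98.4, 109, 125, 134, 135 and 121.6. Mouse 2 had 91.9, 112, 111, 89.3, 119, 125, 138 and 138 in the same order. The values of mouse 3 were 135, 137, 143.5, 138, 124, 135, 156 and 151. Mouse 2 had the lowest value in zones 1, 2, 4, 5 and 6. Mouse 3 had the highest value in every zone but zone 5, where mouse 1 was above it.

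The fitted change of miR-193a-3p over the axis was 0.28 ± 0.13 log2 units (SE, limma adjusted p = 0.156), which did not pass. With the mouse as a block the same change had an SE of 0.11 and an adjusted p of 0.0473, which passed, and in that fit 14.5% of tested miRNAs were called higher and 16.5% lower. The slope was positive in 3 of 3 mice, with 0.02 log2 units per zone in mouse 1, 0.08 in mouse 2 and 0.02 in mouse 3. With the slide row beside the block, the slope was 0.0137 per zone, against 0.0399 with the block alone (limma adjusted p = 0.873). Zones 5 to 8 averaged 7.06 ± 0.12 log2 units against 6.86 ± 0.24 in zones 1 to 4 (SD, n = 12 arrays each). That difference was 0.19 ± 0.09 (SE, 95% interval -0.002 to 0.386, limma adjusted p = 0.187). With the block the interval, not adjusted for the number of tests, was 0.043 to 0.342. The limma adjusted p of 0.0515 missed the threshold with the block too. Zone 8 exceeded zone 1 by 0.23 ± 0.18 (SE, adjusted p = 0.566, limma). Ordered by mean, zone 7 came first at 7.16 ± 0.11 and zone 4 last at 6.79 ± 0.32 (SD, n = 3 mice), and no zone differed from the next in order by more than the larger of their SDs.

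miR-193a-5p, the other arm of Mir193a, gave a weak signal in all parts of the lobule. Zones 5 to 8 had calls on 12 of 12 arrays and zones 1 to 4 on 9 of 12, with mouse 1 zones 2 and 3 and mouse 2 zone 1 undetected. The scaled signal was 1.28 to 3.09 with a median of 2.33 in zones 5 to 8, against at most 2.93 with a median of 1.63 in zones 1 to 4, and the ranges overlapped. Its change over the axis was 0.48 ± 0.31 log2 units (SE, limma adjusted p = 0.331), with slopes of 0.12, 0.01 and 0.07 per zone in mouse 1, mouse 2 and mouse 3. Zones 5 to 8 against zones 1 to 4 gave 0.22 ± 0.22 (SE, 95% interval -0.243 to 0.689, limma adjusted p = 0.597). With the mouse as a block that interval was -0.134 to 0.580. In zone 8 against zone 1 it was 0.66 ± 0.44 (SE, limma adjusted p = 0.485). These sizes depend on the floor: with it 4 times lower the difference of zones 5 to 8 from zones 1 to 4 was 0.72 and that of zone 8 from zone 1 was 1.33, neither passing. Without mouse 1 the difference of zones 5 to 8 from zones 1 to 4 was 0.062, and without mouse 2 it was 0.45. No zone differed from the next in the order of means by more than the larger SD.

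miR-365-3p, the product shared by both chromosomes, had no trend along the lobule that passed the test. It was detected on all 24 arrays, at 86.1 to 125.9 with a median of 105.9 in zones 5 to 8, against 69.7 to 146 with a median of 104 in zones 1 to 4. Along zones 1 to 8, mouse 1 had 107, 104, 79.4, 69.7, 99.1, 97.0, 102 and 95.5. Mouse 2 had 116, 138, 146, 85.2, 125.9, 114, 117 and 117. For mouse 3 the values were 109, 102, 104, 100.4, 86.1, 96.8, 112 and 110.1. The pericentral range enclosed the periportal one, and the lowest zone was zone 4 in mouse 1 and mouse 2 but zone 5 in mouse 3.

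The change of miR-365-3p over the axis was -0.03 ± 0.16 log2 units (SE, limma adjusted p = 0.937). Zones 5 to 8 averaged 6.72 ± 0.16 log2 units against 6.69 ± 0.30 in zones 1 to 4 (SD, n = 12 arrays each). The difference of 0.04 ± 0.10 had a 95% interval of -0.184 to 0.254 (SE, limma adjusted p = 0.876). With the mouse as a block the interval was -0.131 to 0.202. These arrays leave room for a change within these intervals in either direction. Zone 8 and zone 1 differed by -0.04 ± 0.21 (SE, limma adjusted p = 0.967). Inside zones 1 to 4 the slope was -0.13 ± 0.06 per zone (SE, limma adjusted p = 0.936). Zone 4 had the lowest mean, 6.39 ± 0.26 (SD, n = 3 mice), lower than the next in order by 0.28, just over the larger SD of 0.26, and all other neighbours in the order lay within it.

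**Figure D3:**
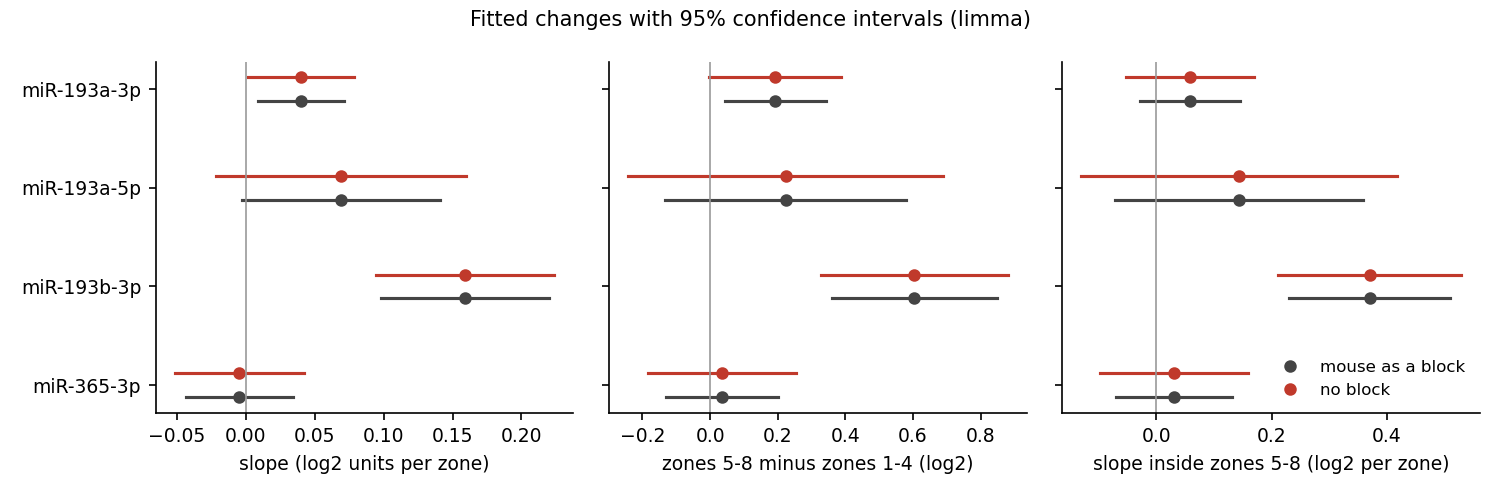
Fitted changes with 95% confidence intervals for the 4 miRNAs: slope per zone over all zones (left), zones 5 to 8 minus zones 1 to 4 (middle) and slope inside zones 5 to 8 (right), in log2 units, each with the mouse as a block and with no block, and with undetected arrays at the floor. The intervals of miR-193b-3p lie above 0 in all 3 panels, at 0.16, 0.60 and 0.37, and those of miR-365-3p cross 0 in each. For miR-193b-3p the sign in the left and middle panels was fixed, because zones 1 to 4 are at the floor throughout. Its sizes and intervals depend on the floor in all 3 panels.

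Whether the genes of chromosome 11 kept step was compared as the ratio of miR-193a-3p to miR-365-3p within each array, which needs no scaling between arrays. Only this pair of members was detected on all 24 arrays, so 1 pair was tested. Mouse 1 had ratios of 1.26, 1.38, 1.33 and 1.27 in zones 5 to 8, against 1.19, 1.18, 1.24 and 1.57 in zones 1 to 4. Mouse 2 had 0.94, 1.09, 1.18 and 1.18, against 0.79, 0.81, 0.76 and 1.05 in zones 1 to 4. In mouse 3 the ratios were 1.44, 1.39, 1.39 and 1.37, against 1.24, 1.34, 1.39 and 1.38. The ranges overlapped in all 3 mice, and mouse 2 had the lowest ratios in every zone.

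On average the ratio was 1.12-fold higher in zones 5 to 8 than in zones 1 to 4, a log2 difference of 0.16. A two-sided exact permutation test over the 343000 reassignments of arrays within mice gave p = 0.0244. By mouse the log2 difference was 0.03 in mouse 1, 0.38 in mouse 2 and 0.07 in mouse 3, positive in 3 of 3. Without mouse 2 it was 0.05 (exact permutation p = 0.396), so the call rests on that mouse. Since miR-365-3p also comes from chromosome 16, the ratio is not one of chromosome 11 products alone.

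**Figure D4:**
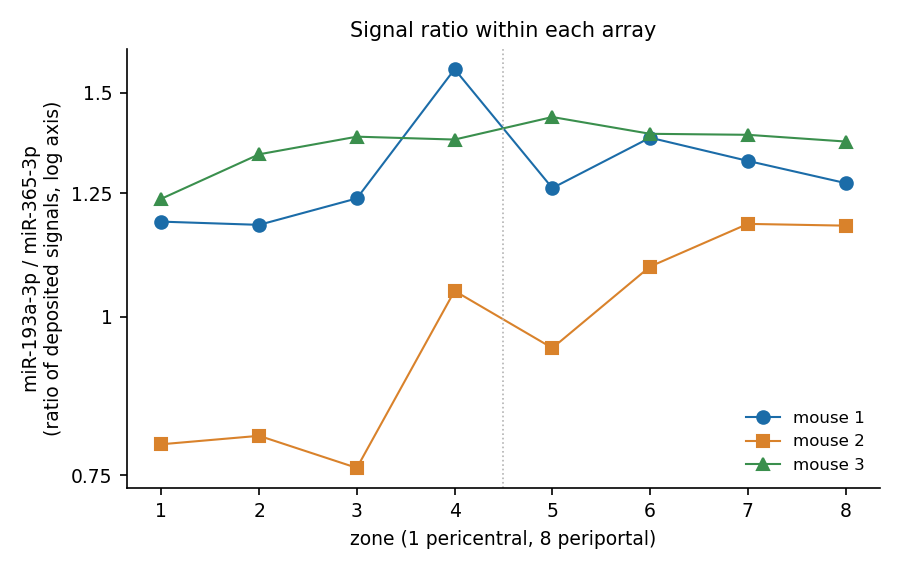
Ratio of the deposited miR-193a-3p signal to the deposited miR-365-3p signal on each array (log axis) against zone, from zone 1 (pericentral) to zone 8 (periportal), with a line per mouse. Mouse 2 lies below the other mice in every zone and has 1.18 in zone 8 against 0.79 in zone 1, while mouse 3 stays between 1.24 and 1.44.

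For 3 of the members the mouse took as large a share of the variance as the zone. Of the variance of log2 scaled signal, mouse and zone took 36.0% and 33.7% for miR-193a-3p, 38.7% and 18.8% for miR-193a-5p, and 38.0% and 29.5% for miR-365-3p. With 8 zones against 3 mice, zone is expected to take the larger share even without any effect. A zone share alone is therefore no sign of a difference between zones. For miR-193b-3p zone took 73.0% and mouse 7.98%. There 17 of the 24 arrays were at the floor, with all of zones 1 to 4 among them, so these shares depend on the floor. Mouse 2 exceeded mouse 1 in miR-365-3p by 0.35 ± 0.10 log2 units (SE, limma adjusted p = 0.00733), where 24.5% of tested miRNAs were called higher. Mouse 3 exceeded mouse 1 in miR-193a-5p by 0.76 ± 0.21 (limma adjusted p = 0.0112; 16.2% called higher), and it exceeded mouse 2 in miR-193a-3p by 0.29 ± 0.09 (limma adjusted p = 0.0131; 20.4% called higher). The other 9 comparisons of a member between mice did not pass. These values rest on the scaling between arrays, which also moves the median of all miRNAs. Between mouse 3 and mouse 1 that median was 0.10, but 0.43 unscaled and -0.25 with the summed signal, with 55 higher and 32 lower calls against 164 and 2, and 31 and 148. The difference of miR-193a-3p between these mice was 0.21 as scaled here and -0.22 with the summed signal, and that of miR-365-3p was 0.13 and -0.30. The difference between zones 5 to 8 and zones 1 to 4 was not found to vary between mice for any member (limma interaction, adjusted p = 0.389 to 0.794; 11 of 339 miRNAs called).

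How the members moved together, and with which other miRNAs, is given as Pearson correlations over the 24 arrays after removing each mouse's mean. The points share arrays and scaling, so these are descriptions. The correlation was 0.56 between miR-193a-3p and miR-365-3p, 0.41 between miR-193a-3p and miR-193a-5p, 0.46 between miR-193a-3p and miR-193b-3p, and 0.07 between miR-193b-3p and miR-365-3p. Closest to miR-193b-3p were miR-23a-3p (0.79), miR-137-3p (0.77) and miR-149-5p (0.75), which all rose over the axis. No pericentral array had a call for miR-193b-3p, miR-137-3p or miR-149-5p, so values at the floor on the same arrays enter their correlations. By contrast, miR-23a-3p had a call on all 24 arrays. How far the shared floor sets the values for miR-137-3p and miR-149-5p was not tested. miR-193a-3p was most like miR-30b-5p (0.92), miR-192-5p (0.91) and miR-29b-3p (0.91). Each value is higher than its correlation with any other member, but they were picked as the highest among all tested miRNAs outside the members. miR-365-3p was most like let-7c-5p (0.88), miR-103-3p (0.87) and miR-98-5p (0.86). The weak miR-193a-5p had lower values throughout, with miR-7a-5p (0.61), let-7a-5p (0.61) and let-7c-5p (0.58) closest.

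Since miR-193b and miR-365 are known from brown fat, 19 miRNAs studied in mouse brown and beige fat were set beside them. The list held miR-193b-3p and miR-365-3p, 14 of the 19 were tested, and 5 were detected on no array, among them the muscle and brown fat regulators miR-133a-3p and miR-133b-3p. Over the axis 5 of the 14 rose, 0 fell and 9 did not pass, against 10.3% higher and 6.49% lower of all tested miRNAs. The choice of list was made with earlier results of these data known. Among the 5 is miR-193b-3p, which passed the detection filter through periportal arrays alone. Comparisons of the list with all tested miRNAs are therefore descriptions and cannot show an excess of fat miRNAs. The median change over the 14 was 0.27 log2 units, beside -0.10 over all tested. Besides miR-193b-3p, those that rose were miR-27a-3p, an inhibitor of fat cell formation, by 1.23 ± 0.33, miR-26a-5p, known to favour browning of human fat cells, by 0.62 ± 0.13, miR-203-3p by 0.58 ± 0.14 and miR-30c-5p by 0.51 ± 0.15 (SE, log2 units, limma adjusted p = 0.0107, 0.00131, 0.00546 and 0.0196). miR-27a-3p had a call on 15 of 24 arrays, so its size includes values at the floor, while miR-26a-5p, miR-203-3p and miR-30c-5p were detected on all 24. miR-365-3p, encoded beside miR-193b on chromosome 16, was among the 9 that did not pass. The list mixes miRNAs that promote and that restrain fat cell formation. With the mouse as a block 7 rose and 1 fell, miR-455-3p, which is known to favour brown fat formation in mice, where 14.5% of all tested miRNAs were called higher and 16.5% lower.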

How the data were processed

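Per the labels' protocols, total RNA of each sample was labelled with Cy3 for hybridisation. The authors deposited an intensity, the total gene signal of each miRNA. The submitters' processing notes name Agilent Feature Extraction. Its version and settings are not given in the sources used here. Besides the signal, the deposited files hold a detection call and an error per miRNA. The file headers record no scaling of arrays to each other. Zone and mouse came from the labels, and the 3 mice are separate animals.

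Members and lists were chosen with earlier results of these data known. The 21 control sequences were left out. Each array was scaled to the mean 75th percentile of the 198 miRNAs that all arrays detected, floored at 1.12 and taken to log2. Tests used limma 3.58.1 (lmFit, eBayes) in R 4.3.3 over the 339 miRNAs, with p-values adjusted by Benjamini-Hochberg and called under 0.05, and were checked on simulated data. Ratios were tested by exact permutation within mice. Figures used Python 3.11.15 with matplotlib 3.10.9. Tests were two-sided, and the number of arrays limits their precision. Alternatives were other scalings, another floor, other filters, trend and robust eBayes, the mouse as a block, slide row, and leaving out arrays, zones or mice. An alternative that put undetected values at each miRNA's own lowest detected signal was added after seeing the data.

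Mouse numbers pair the arrays because all 8 zones of a number come from the same animal. Deviations from zone means correlated at a median of 0.610 between arrays of the same mouse (lowest 0.254). Named miRNAs were the members, their other arms, the 3 most similar miRNAs of each member, and members of the fat list that passed. Sequences are from RefSeq (GRCm38.p6) and were matched by miRNA name. The miRNAs absent from zones 1 to 4 were named after their values were seen.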

Additional observations from a re-analysis of the deposited data

How the results depend on the processing

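Low signal limits miR-193b-3p and miR-193a-5p, and the slide row cannot be told apart from the split of zones 5 to 8 and zones 1 to 4. Neither was detected on all 24 arrays, so the filter on all arrays gave no value for them. The direction of miR-193b-3p along the axis was the same under every alternative run. No array of zones 1 to 4 had a call, and undetected arrays were set no higher than its detected signals. A positive slope was therefore fixed in advance, except in the fit with slide row, and is no sign of robustness. The slope of miR-193b-3p per zone was 0.44 with the floor 4 times lower (main 0.16). It was 0.10 with undetected values at its own lowest signal, a setting chosen after seeing the data. That of miR-193a-5p was 0.188 with the floor 4 times lower (main 0.0689). Causes of the changes below were not tested.

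With the mouse as a block, miR-193a-3p passed at a slope of 0.0399 (adjusted p = 0.0473), as it did with the summed signal at 0.0639 (adjusted p = 0.0235). The block changed no other call of a member. It raised the calls along the axis to 105 (main 57), between zones 5 to 8 and zones 1 to 4 to 95 (55), between zone 8 and zone 1 to 33 (18), over all zones to 31 (18), and inside zones 5 to 8 to 7 (4). With slide row added to the block, the slope of miR-193b-3p was 0.18 (adjusted p = 0.339), that of miR-193a-3p 0.0137 (0.873) and that of miR-193a-5p 0.111 (0.570), and 0 miRNAs were called.

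Left unscaled, the slope of miR-193a-3p was 0.0727 (adjusted p = 0.223), the F of miR-193b-3p was 4.37 (adjusted p = 0.137) and 9 miRNAs were called, and its slope inside zones 5 to 8 was 0.38 (adjusted p = 0.103) with 0 called. With the floor 4 times lower these were 4.56 (0.0850) and 0.84 (0.0912), and with trend and robust eBayes the F was 4.51 (0.0625). Unscaled, 29 miRNAs were called between zones 5 to 8 and zones 1 to 4.

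Leaving out mice 1 at a time gave miR-193b-3p a slope over all zones of 0.108 to 0.204, an F of 2.38 to 7.69, slopes of 0.32 to 0.38 inside zones 5 to 8, 0.35 to 0.83 for zones 5 to 8 against zones 1 to 4, and 0.97 to 1.30 for zone 8 against zone 1. Leaving out single zones gave its slope as 0.10 to 0.19, with zone 8 the one whose loss ended the call (0.10, adjusted p = 0.0576). The log2 ratio of miR-193a-3p to miR-365-3p was 0.0478 to 0.22.

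Differences between mice turned on the scaling. Unscaled, mouse 3 exceeded mouse 1 by 0.58 in miR-193a-3p, 0.49 in miR-193b-3p and 0.50 in miR-365-3p, and mouse 2 by 0.72 in miR-193a-5p, all passing. With the summed signal, mouse 3 against mouse 1 reversed to -0.22 for miR-193a-3p and -0.30 for miR-365-3p and was 0.39 for miR-193a-5p. Mouse 3 against mouse 2 was 0.15 for miR-193a-3p and -0.36 for miR-365-3p, and mouse 2 against mouse 1 was -0.37 and 0.0610. With quantile normalization, mouse 3 against mouse 1 was 0.24 for miR-193a-3p, 0.23 for miR-365-3p and 0.000692 for miR-193a-5p. With the floor 4 times lower the last was 1.26 (adjusted p = 0.0712).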

Other observations

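Between the neighbouring zone 5 and zone 4, miR-365-3p was higher by 0.51 log2 units in mouse 1 and 0.56 in mouse 2, and differed by -0.22 in mouse 3. For miR-193a-3p the same step was 0.20, 0.41 and -0.16. These single differences were not tested.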
